A study of Caenorhabditis elegans with 2 samples.

Results

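The col- genes of Caenorhabditis elegans are the large gene family of nematode cuticle collagens, and 156 of the 19973 nuclear protein-coding genes carry a symbol that starts with col- in the Ensembl annotation of genome build WBcel235 (ce11). All 156 were taken as members by their symbol alone. RefSeq gives 117 of them a product name that spells out the nematode cuticle collagen N-terminal domain. Others are named for a Col_cuticle_N domain or as a numbered cuticle collagen. The 117 therefore counts a wording and not every member with the domain. At least 1 member is no cuticle collagen in the usual sense, since col-99, which RefSeq names a cuticle collagen, encodes a transmembrane collagen. Members lie on every nuclear chromosome, from 12 on III to 41 on IV, and are compact, with a median coding length of 912 bp (range 462 to 2220) against 987 bp over all protein-coding genes.

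Binding of SCRT-1 around these genes was read from an anti-GFP chromatin immunoprecipitation sequencing (ChIP-seq) series. It holds 1 group of 2 samples that the labels number as biological replicates, both from strain OP802. Its genotype is wgIs802, an array with the fosmid transgene scrt-1::TY1 EGFP 3xFLAG and the rescuing marker unc-119(+), in the mutant background unc-119(tm4063). Embryos 2 h old were collected by egg bleaching and used whole, and their chromatin was sonicated to 200 to 800 bp. The tagged protein therefore came from a transgene, the cells that bound it cannot be told apart, and there is no second condition to compare.

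Cuticle collagens are small secreted proteins built around stretches of Gly-X-Y repeats, in which every glycine is encoded by a GGN codon, so their coding DNA repeats GG at intervals of 9 bases. Trimeric collagen is made in the epidermis, processed by hydroxylases, disulfide isomerases and proteases, and crosslinked into the cuticle, with waves of transcription before the first cuticle of the late embryo and before each molt. SCRT-1 is a Scratch-type zinc finger protein of the Snail family, and Snail factors of other animals recognise the E-box CAGGTG.

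Of the 1211 peaks in the thresholded list from the comparison of both replicates, called conservative sites here, 27 were placed at a col- gene. They comprise 25 whose nearest protein-coding start within 5000 bp was a col- gene, plus a peak upstream of col-71 that lay closer to another start and a peak at the end of the long gene col-99. Of the 27 summits, 17 lay inside coding exons of col- genes, 7 lay at a tRNA or snRNA gene, 1 lay in a col- intron, and 2 lay elsewhere. In all, 23 members had at least 1 of these sites and 133 had none. Signal below is the value that the authors deposited for a peak, on a scale with no stated unit. The irreproducible discovery rate (IDR) estimates which fraction of the peaks down to a given rank would fail to recur between replicates, and the largest IDR in the conservative list was 0.00999.

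**Figure D1:**
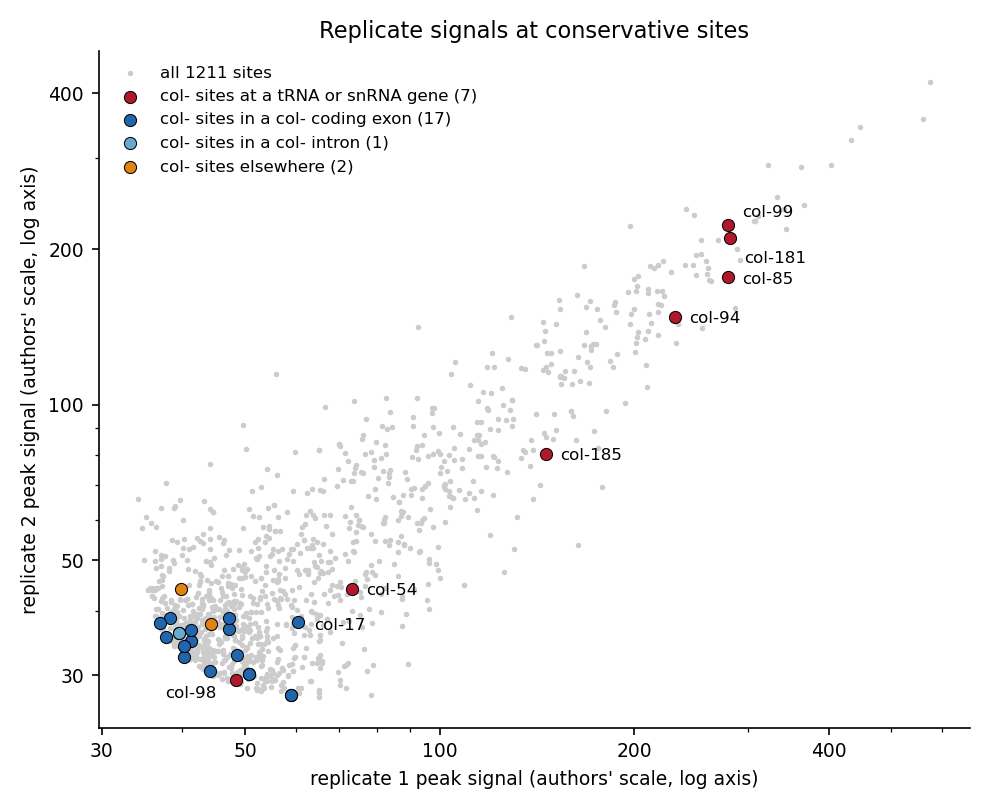
Signal of the replicate 1 peak (x axis) and the replicate 2 peak (y axis) at each conservative site, both on log axes and on the authors' scale. Grey points are all 1211 sites, and coloured points are the 27 sites at col- genes by what lies under the summit. The 5 strongest col- sites lie at tRNA and snRNA genes, with replicate 1 signals from 146 to 281, and all 17 coding-exon sites lie between 36.9 and 60.3 in replicate 1.

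The promoters of col- genes seldom held a site. The promoter window ran from 1000 bp upstream to 200 bp downstream of any annotated start. A conservative summit fell in that window of 2 of the 156 members (1.28%, exact 95% interval 0.156 to 4.55%), against 597 of all 19973 genes (2.99%). That is no more than the background share, and the interval contains it. The 2 genes were col-185 and col-71, both of which encode predicted cuticle collagens.

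At col-185 the site ran from X:13511950 to 13512055, its summit 905 bp upstream of the start. Its signal was 225 in the joint list, 146 in replicate 1 and 80.3 in replicate 2, its IDR was 0.000268, and it also appeared in the thresholded list of each replicate alone. The summit lay 39 bp into H06A10.t1, a tRNA-Pro gene, and inside the non-coding RNA gene H06A10.3. At col-71 the site ran from II:3502684 to 3502999, its summit 272 bp upstream. Its signal was 87.0, with 44.3 in replicate 1, 37.7 in replicate 2 and an IDR of 0.00401, and neither replicate's own thresholded list held it. The summit was closer to another gene, Y49F6B.2, whose start lay 126 bp away, so the peak cannot be assigned to col-71 by distance. Both promoter sites are thus shared with, or nearer to, a gene of another kind or name. The 101 bp around each summit are printed on the strand of the tRNA gene and of col-71. Capitals mark the bases of the tRNA gene, and the col-71 window holds none of the words that were searched.
col-185 site, X:13511952-13512052, minus strand: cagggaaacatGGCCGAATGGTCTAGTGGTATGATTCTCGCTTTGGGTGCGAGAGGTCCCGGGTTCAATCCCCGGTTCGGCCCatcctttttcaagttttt
col-71 site, II:3502792-3502892, minus strand: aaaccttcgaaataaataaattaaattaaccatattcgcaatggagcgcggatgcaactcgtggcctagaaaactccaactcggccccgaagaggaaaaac

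Weaker peaks were counted in the same way. The full ranked list of the replicate comparison holds 101059 candidates with no IDR threshold applied, and 111 members (71.2%) had at least 1 in the promoter window, against 69.4% of all genes. At an IDR of at most 0.05 the count was 7 members (4.49%), against 6.12%. Over the 111 members the median signal of the strongest window candidate was 31.0 (range 3.95 to 225), against 33.9 over all 13864 genes with one. The median of the lowest IDR was 0.455, against 0.424. In replicate 1 the median was 17.8 against 19.8 for all genes, and in replicate 2 it was 13.7 against 14.9. The members' promoter medians therefore lay below those of all genes in signal and above them in IDR, by less than the distance between the quartiles of either set.

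The 10 members with the strongest promoter candidate but no site there were col-38, col-44, col-46, col-95, col-142, col-99, col-39, col-45, col-157 and col-113, with signals from 78.6 down to 53.0. Several of these candidates also lay in coding DNA of col- genes. Those of col-99, col-45 and col-113 were in their own coding exons. Those of col-44, col-142 and col-39 were in coding exons of the neighbouring genes col-9, col-141 and col-79. The candidate of col-38, 465 bp upstream, measured 41.1 in replicate 1 against 31.7 in replicate 2. Its IDR of 0.01003 put it just outside the conservative list. The candidate of col-44, 656 bp upstream, reached 57.4 in replicate 1 and 9.22 in replicate 2, with an IDR of 0.578. The matched peaks of col-44 thus differed more between the replicates than those of col-38, while replicate 2's own ranked list held a peak of 26.9 in the same window. The candidate of col-46 gave 41.7 and 26.1 in replicates 1 and 2 at an IDR of 0.0233, and that of col-39 gave 30.2 and 31.8 at 0.0405. For col-99 and col-45 the IDR was 0.0482 and 0.0417. The other 4 had IDRs from 0.0584 (col-95) to 0.325 (col-113). At least 1 window candidate was listed for 71.2% of members and 69.4% of all genes, and 45 members had none. For 23 members neither the window nor a coding exon held a candidate, and no share of all genes was computed for that count.

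**Figure D2:**
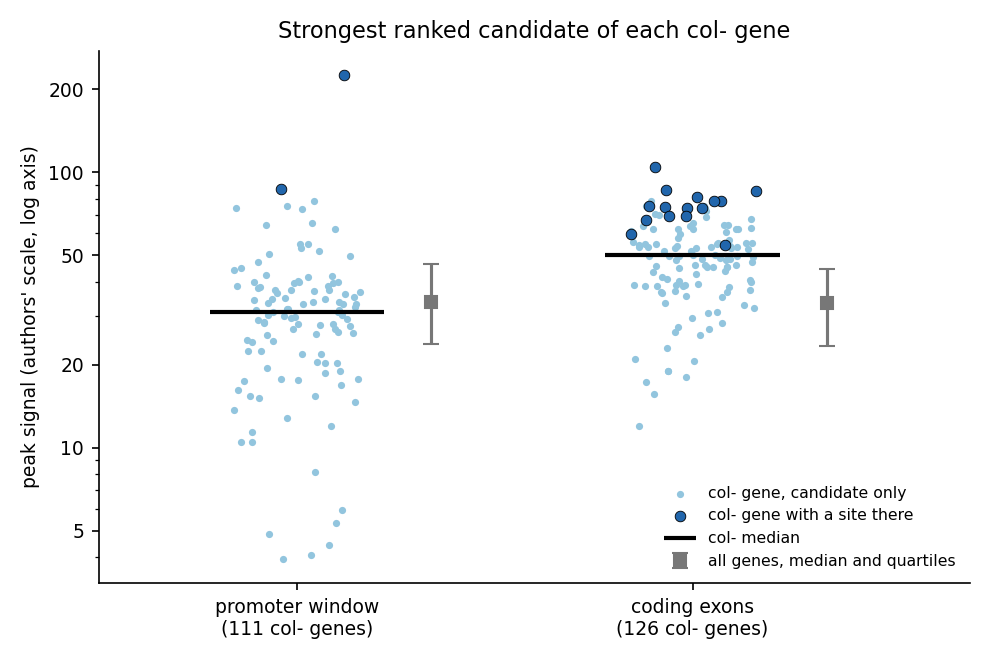
Signal of the strongest ranked candidate of each col- gene (y axis, log, authors' scale) in the promoter window and in coding exons. Each point is a gene, dark points have a conservative site there, black bars are the col- medians (31.0 in the window), and grey squares with bars are the median and quartiles over all genes with a candidate (33.9 and 33.6). The col- median lay below that of all genes in the window and above it in coding exons.

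Coding exons gave a different count. This placement was examined after the positions of the sites had been seen. A conservative summit lay in a coding exon of 15 members (9.62%, exact 95% interval 5.48 to 15.4%), against 140 of all 19973 genes (0.701%). Of the 150 conservative sites in coding exons, 17 (11.3%) were in col- genes, which hold 0.613% of all coding bases and 0.776% of all ranked coding candidates. Counts of sites, here and in the bins below, take each listed peak separately. They include both peaks of the col-80 and col-81 pairs described below, which rest on the same replicate peaks. The 15 genes were col-2, col-17, col-42, col-63, col-80, col-81, col-93, col-99, col-108, col-111, col-119, col-121, col-130, col-140 and col-178. Their median coding length was 912 bp, the same as that of the members without such a site. By chromosome, they were 7 of the 41 members on IV, 3 of 24 on II and 2 of 31 on V. The other chromosomes gave 1 of 21 on I, 1 of 12 on III and 1 of 27 on X.

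The count moved with the reproducibility threshold. At an IDR of at most 0.05, 32 members (20.5%) had a coding-exon candidate, against 3.36% of all genes, and any ranked candidate was present in 126 members (80.8%), against 61.8%. At 0.005 the count was 4 members (2.56%), against 0.34%. At 0.001 it was 0 of 156 members, against 11 of all 19973 genes (0.0551%), a share too small for 0 members to differ from it. In a second series-wide thresholded list, called the optimal list here, the count was 7 members (4.49%), against 0.801%. Of the genes in that list, 6 of these 7 were among the 15, and the other was col-44. In the thresholded lists of the single replicates it was 0 members each, against 0.1% of all genes in replicate 1 and 0.0751% in replicate 2. A count of 0 of 156 allows a share of up to 2.34%. Over the 126 members with any ranked coding candidate, the strongest had median signals of 29.4 in replicate 1 and 22.9 in replicate 2. Over all 12350 genes with one, these medians were 19.4 and 14.8. The quartiles of the joint signal were 38.8 and 62.2 for members, against 23.3 and 44.7, so the ranges overlapped. The median of the lowest IDR was 0.159 for members, against 0.42.

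**Figure D3:**
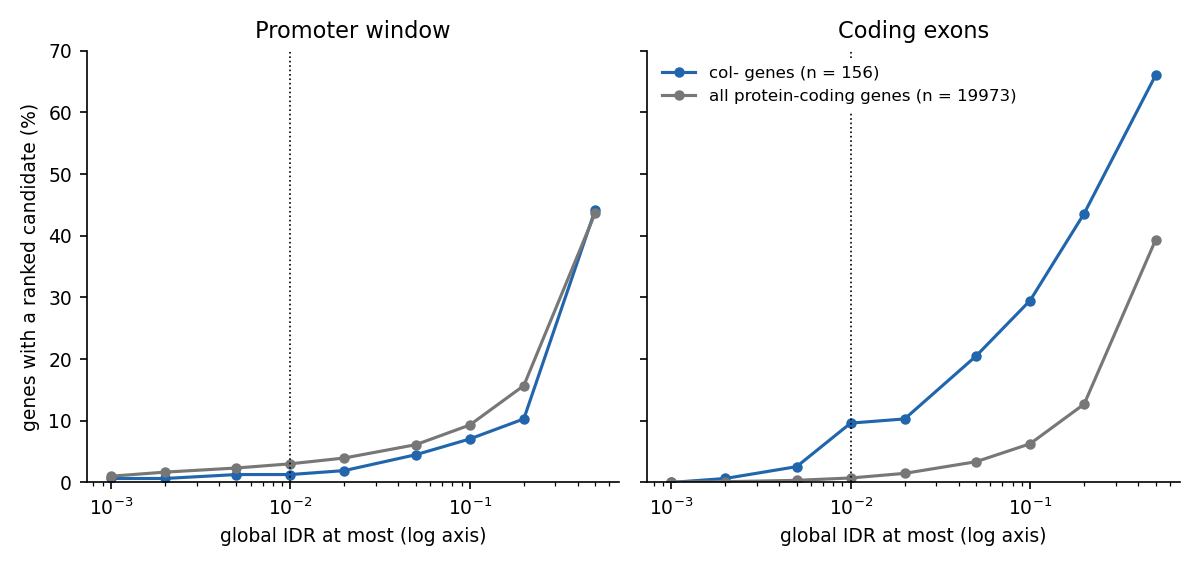
Percent of genes (y axis) with a ranked candidate at or under each global IDR (x axis, log) in the promoter window and in coding exons, for the 156 col- genes and all 19973 protein-coding genes. The dotted line marks an IDR of 0.01, where the coding-exon shares were 9.62% and 0.721% and the promoter shares 1.28% and 3.02%.

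The coding sites were weak beside the whole list. Their median signal was 74.1 (range 9.65 to 104), against 94.6 over all 1211 sites and 81.5 over the 133 coding-exon sites of other genes. Replicate 1 gave 36.9 to 60.3 and replicate 2 gave 27.4 to 38.7, with replicate 1 above replicate 2 at 15 of the 17. Their median IDR was 0.00757 (range 0.00185 to 0.00994), close to the largest value in the list, against 0.00535 for the coding sites of other genes. All 17 had a peak in both replicates' own ranked lists, at IDRs from 0.0169 to 0.825 in replicate 1 and from 0.0316 to 0.844 in replicate 2, none of which passes those lists' threshold. The summits called in the 2 replicates were a median of 110 bp apart, and at most 217 bp. Taking the summit of the replicate 1 or the replicate 2 peak in place of the joint summit left 15 members with a coding site in both cases.

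The strongest coding site was in col-17, a predicted cuticle collagen, from II:4866886 to 4867201, with a joint signal of 104 and signals of 60.3 and 38.02 in replicates 1 and 2. The site in col-63 reached 86.2, with 47.3 in replicate 1 and 36.8 in replicate 2. That in col-2, a collagen known from dauer larvae, had 85.2 in the joint list but 37.8 and 35.5 in the replicates, at an IDR of 0.00983. In all 3 the replicate 1 signal was the higher. The site in col-93 had a signal of 81.3, with 47.3 and 38.7 in replicates 1 and 2, and that in col-111 had 78.5, with 41.3 and 35.0. The coding site of col-99 ran from IV:138554 to 138869 and reached 78.6, with 48.6 in replicate 1 and 32.8 in replicate 2. The site in col-111 lay 405 bp downstream of the nearer of its annotated starts. Summits sat at a median of 66.6% of the coding sequence counted from its first base, between 38.3 and 99.5%.

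**Figure D4:**
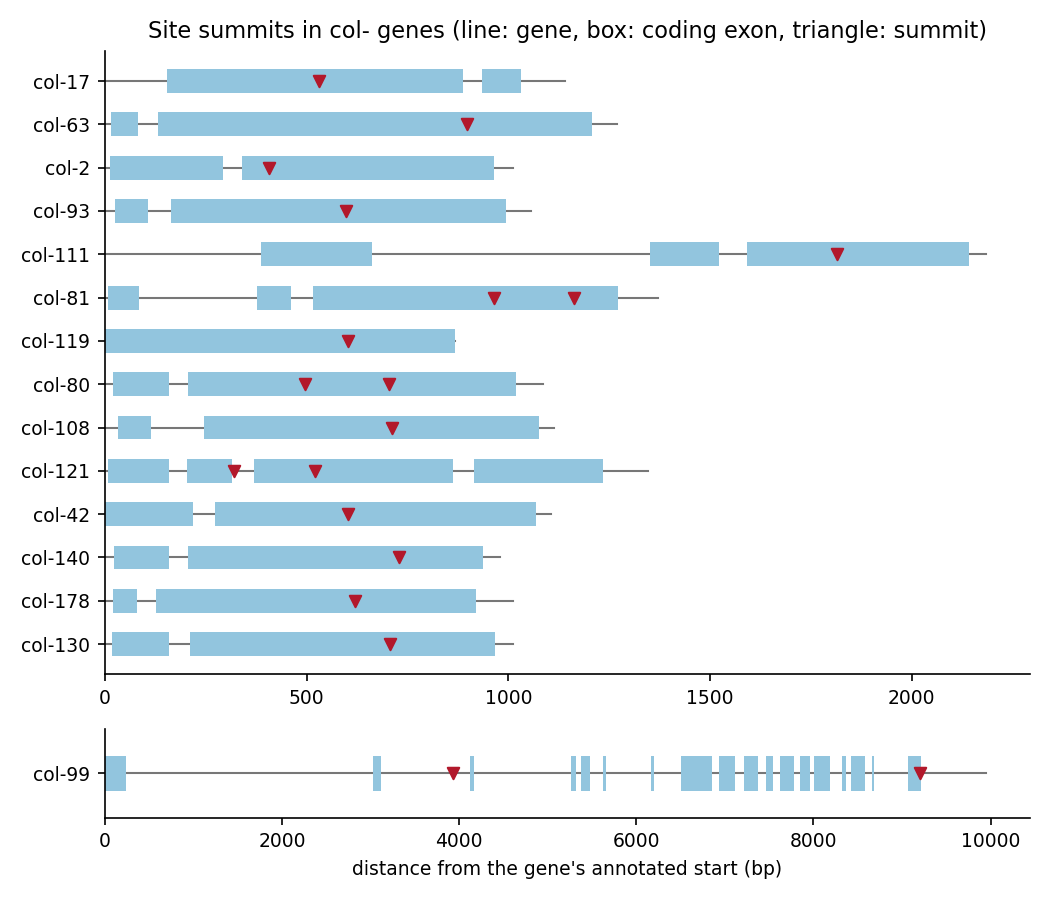
Distance in bp from the outermost annotated start (x axis) of the summits (triangles) in the 15 col- genes with a coding-exon site, drawn over the gene (line) and its coding exons (boxes). In col-99, drawn on its own axis, the first triangle is a tRNA gene site and the second the coding-exon site at 99.5% of the coding sequence. In col-121 the triangle at 321 bp is the intron site.

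The sites of col-80, col-81 and col-121 came in pairs that rest on the same replicate peaks. In col-80 the summits 497 and 705 bp from the start shared replicate signals of 50.8 and 30.2. In col-81 the summits at 964 and 1163 bp shared 58.8 and 27.4. In col-121 the coding summit at 520 bp and the intron summit at 321 bp shared 39.5 and 36.2. Each pair is 1 observation in each replicate and not 2, and the lowest signals of the set, 9.65 in col-81, 24.4 in col-121 and 32.8 in col-80, are the second peaks of these pairs. The remaining coding sites were those of col-119, col-108, col-42, col-140, col-178 and col-130, with signals from 74.5 to 54.6, replicate 1 signals from 36.9 to 44.1 and replicate 2 signals from 30.6 to 38.6.

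Several of these genes share their DNA with another annotated gene. The col-93 site also lies within dhc-4, a dynein heavy chain gene, that of col-119 within pdzd-8, that of col-80 within dph-2, a diphthamide synthesis gene, and that of col-130 within ugt-65, a UDP-glucuronosyltransferase gene. The col-2 summit lay 56 bp from the start of the non-coding RNA gene W01B6.15 and inside the promoter window of W01B6.8. None of the 17 lay within 100 bp of the start of a gene for a structural small RNA (tRNA, rRNA, snRNA, snoRNA). The nearest protein-coding start to the col-99 coding summit was that of daf-1, a receptor of the TGF-beta family, at 6261 bp.

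The DNA under the coding sites showed the collagen repeat. In the 101 bp around each summit, read on the coding strand, the offset with most GG at steps of 9 bases held GG at a median of 81.8% of its positions. The median was 63.6% at the other 221 col- coding candidates, and 18.2% both at the 133 coding sites of other genes and at the 30297 other coding candidates. In col-17, col-81, col-108 and col-178 a window reached 11 of 11 positions. The lowest were 6 of 11 in col-63 and in col-119, 4 of 11 in col-121 and 2 of 11 in col-99, so the window of col-63, which held the site of second highest signal, lay below the median of the other col- candidates. Windows of 5 of the 6 strongest coding sites, shown for the repeat and for the exception in col-99, follow without that of col-63, 5′ to 3′ on the coding strand, with GGN triplets of the repeat's reading frame in capitals. In col-17 that frame is not the frame of the Ensembl model.
col-17, II:4866994-4867094, minus strand: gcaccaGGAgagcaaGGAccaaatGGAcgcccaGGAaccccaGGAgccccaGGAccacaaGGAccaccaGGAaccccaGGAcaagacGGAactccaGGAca
col-2, IV:10084993-10085093, minus strand: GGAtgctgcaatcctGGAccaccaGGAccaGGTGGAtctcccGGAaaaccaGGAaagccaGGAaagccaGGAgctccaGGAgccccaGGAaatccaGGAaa
col-93, III:10984961-10985061, minus strand: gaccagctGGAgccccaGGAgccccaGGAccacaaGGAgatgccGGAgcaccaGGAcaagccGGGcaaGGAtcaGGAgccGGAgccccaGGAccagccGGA
col-111, IV:4656109-4656209, minus strand: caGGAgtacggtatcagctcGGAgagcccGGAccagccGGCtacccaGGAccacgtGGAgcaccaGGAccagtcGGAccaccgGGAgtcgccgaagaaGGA
col-99, IV:138662-138762, minus strand: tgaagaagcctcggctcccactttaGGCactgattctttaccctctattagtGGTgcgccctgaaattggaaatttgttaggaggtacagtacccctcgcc

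The windows of col-2 and col-93 hold 12 such triplets each, that of col-17 holds 11, that of col-111 holds 10 and that of col-99 holds 2. The col-99 site therefore lies outside the repeat, at the end of the coding sequence, and it is the only 1 of the 17 under 30% in the 9-base register.

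The coding sites were also rich in G and C. Their median GC content was 62.4% (range 49.5 to 69.3%), against 58.4% at the other col- coding candidates, 52.5% at the coding sites of other genes and 43.6% at other coding candidates. The share of candidates that were sites was larger in each higher GC bin in both sets. Under 45% GC, 0 of 15 col- candidates were sites, against 0.149% of candidates in other genes. From 45 to 55% the shares were 3.39% (2 of 59) and 0.549%, from 55 to 65% they were 7.09% (9 of 127) and 2.21%, and at 65% or more they were 16.2% (6 of 37) and 6.52% (6 of 92). In each of the 3 bins from 45% upward the col- share was the larger. Base composition thus moved with the result, and its part in it was not tested.

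By the GG repeat, the col- shares were 1.79% (1 of 56) under 30% of positions, 5.66% from 30 to 60%, 7.69% from 60 to 90% and 12.5% (8 of 64) at 90% or more. In other genes they were 0.412%, 0.915%, 4.76% (3 of 63) and 0% (0 of 27). The last bin holds only 27 candidates of other genes, for which 0 allows a share of up to 12.8%. Repeated DNA can affect where reads are placed, and 8 of the 17 windows held at least 1 run of 30 bases found elsewhere in the genome, against 14 of the 133 coding sites of other genes. Such a run was also in 66 of the 221 col- coding candidates that were not sites, and in 486 of all 1211 sites. Among the 8 windows, that of col-93 had the largest share, 52.8% of its runs, and the other 7 had 22.2% or less. The part of such repeats in the result was not tested, and a control library was not analysed here.

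**Figure D5:**
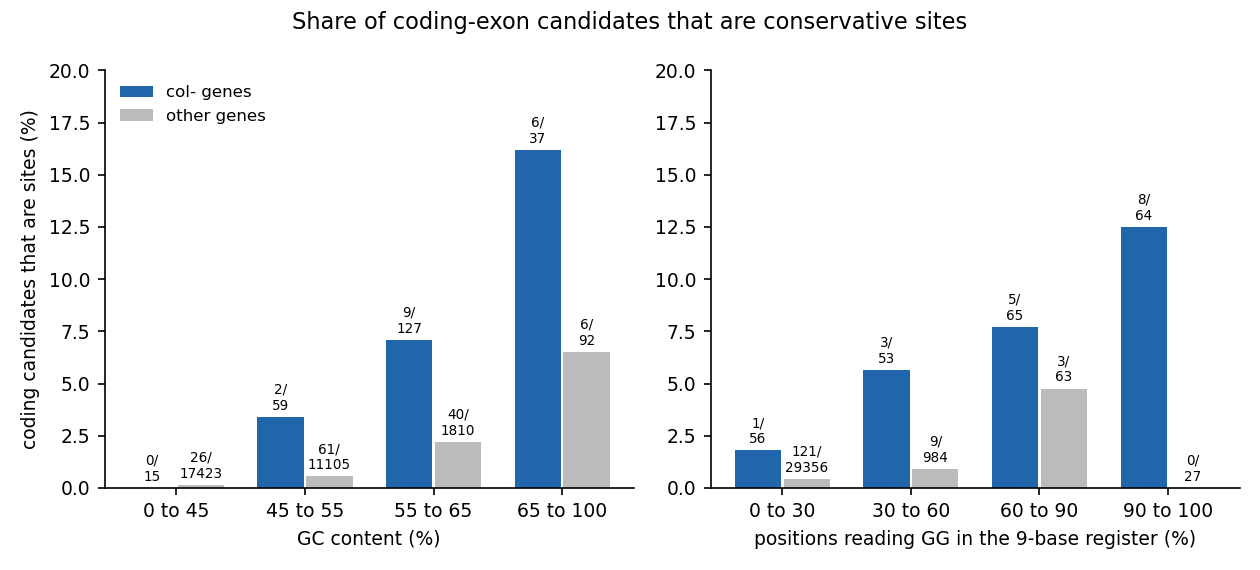
Percent of ranked coding-exon candidates that are conservative sites (y axis) by GC content of the 101 bp at the summit (left) and by the percent of positions in the best 9-base register that read GG (right). Blue bars are col- genes and grey bars other genes, with sites over candidates printed above each bar, from 6 of 37 against 6 of 92 in the highest GC bin to 8 of 64 against 0 of 27 in the highest repeat bin.

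Beyond promoters and coding exons, the nearest-start rule gave 22 members (14.1%, exact 95% interval 9.05 to 20.6%) as the closest protein-coding gene to a site, against 979 of all genes (4.9%). Of these 25 sites, 16 were the coding sites just described. The strongest, however, lay at genes for small RNAs, as 7 of the 25 did (28.0%). The same share was 26.3% (288 of 1096) among sites nearest to other protein-coding genes and 26.2% (317 of 1211) over all sites, so col- genes were near the background here. The 4 strongest were at col-181, col-99, col-85 and col-94.

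The site downstream of the start of col-181, from X:12106077 to 12106339, ranked 15 of 1211. Its signal was 501, with 281 in replicate 1 and 210.0 in replicate 2. Its summit lay 12 bp into W03G11.t1, a tRNA-Lys gene, and 1061 bp from the col-181 start. Inside col-99, from IV:143874 to 144099, a site of signal 499, with 279.5 in replicate 1 and 223 in replicate 2, lay 9 bp into F29C4.t1, a tRNA-Arg gene. Inside col-85, from II:12494641 to 12494872, a site of signal 455, with 279 and 176, lay 2 bp into T21B4.t1, a tRNA-Ile gene. In all 3 the replicate summits were at most 9 bp apart and each replicate's own thresholded list held the peak. Windows of the 3 sites follow on the strand of the tRNA gene, with its bases in capitals.
col-181 site, X:12106157-12106257, minus strand: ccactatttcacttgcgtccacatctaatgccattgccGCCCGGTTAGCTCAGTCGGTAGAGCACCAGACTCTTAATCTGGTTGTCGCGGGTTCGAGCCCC
col-99 site, IV:143941-144041, plus strand: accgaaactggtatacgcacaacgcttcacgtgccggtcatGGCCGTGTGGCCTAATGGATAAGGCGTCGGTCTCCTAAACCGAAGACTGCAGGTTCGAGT
col-85 site, II:12494693-12494793, plus strand: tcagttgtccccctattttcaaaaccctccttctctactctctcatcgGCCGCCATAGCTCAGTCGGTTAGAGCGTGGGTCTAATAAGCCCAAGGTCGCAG

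The windows begin upstream of each tRNA gene and end within it. GTTCGA, a word from the tRNA promoter element called the B box, was found in 3 of the 7 small RNA windows (42.9%), those of col-181, col-99 and col-54. It was in 15.3% of all site windows, but only 317 of the 1211 sites are at small RNA genes. Only this exact word was counted, and windows that end within a tRNA gene miss part of it. The count therefore does not show which of these genes have a B box.

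The other 4 small RNA sites were weaker. Near col-94 a site of signal 392, with 231 in replicate 1 and 148 in replicate 2, lay 28 bp into R07E5.16, an snRNA gene inside dhc-4 and 1834 bp upstream of col-94. The tRNA-Pro site of col-185 was described above. Inside col-54, on chromosome I, a site of signal 107, with 73.2 and 44.0, lay 51 bp into the tRNA-Arg gene F33D11.t2. Replicate 1's own thresholded list held it while replicate 2's did not. Upstream of col-98, by 2877 bp, a site of signal 71.9, with 48.4 and 29.4, lay 47 bp into the tRNA-Thr gene F14F7.t1. Neither replicate's own thresholded list held it. The last site, upstream of col-87 by 1256 bp and within an intron of Y39G8C.2, had a signal of 88.5, with 39.8 and 44.0 in the replicates.

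The placements near the limits of the rule were as follows. The col-185 summit at 905 bp upstream was the farthest inside the promoter window, and the col-87 summit at 1256 bp was the closest outside it. On the downstream side the closest outside was the col-121 intron summit at 321 bp. The farthest summit counted by the nearest-start rule was the col-99 tRNA site at 3928 bp, and no site nearest to a col- start lay beyond 5000 bp.

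The E-box CAGGTG, searched on both strands, was in 1 of the 17 coding windows (5.88%), that of col-2, in 0 of the 7 small RNA windows, and in 3.47% of all site windows of 101 bp. It was in 15.4% of the 221 col- coding candidates that were not sites and in 3.69% of all coding candidates. In the 300 bp from 250 bp upstream to 50 bp downstream of the start it was in 8.97% of col- promoters and 8.48% of all promoters. The GATA factor words, AGATAA or AGATAG or TGATAA or TGATAG, were in 62.2% of col- promoters and 54.5% of all. Of the other words, CAAGTG was in 25 of the 156 col- promoters and in 12.4% of all promoters, GAGAGA in 26.9% and 21.8%, GAGACGCAG in 4.49% and 2.93%, GGGCGG in 25 of 156 and in 7.83%, GTTCGA in 13.5% and 9.85%, GCGCAC in 4.49% and 5.6%, and TTGGC in 44.2% and 35.5%. A word found is a description of the window and not a binding event.

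Other genes of the cuticle pathway were counted in the same way. Of 19 further cuticle collagens named for body shape or movement, 1 had a site, dpy-17, with a pair of peaks at 79 and 280 bp from its start, both in its coding exons, that share replicate signals of 50.1 and 39.5. The dpy-17 peak at 79 bp also lay in its promoter window. Of 12 genes with a cuticle collagen product name and another symbol, 0 had a site. The 3 basement membrane collagens emb-9, let-2 and cle-1 had 0. Of 11 processing and crosslinking genes, 1 had a site, pdi-2, a disulfide isomerase that is also a subunit of prolyl 4-hydroxylase, 60 bp upstream of its start. Its signal was 97.2, with 40.9 in replicate 1 and 52.6 in replicate 2.

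Of 39 cuticlins and related zona pellucida proteins, cutl-23 had a site in the promoter window (signal 96.6), with the tRNA gene B0244.t2 3 bp from its summit. The cuticlin genes cut-2 (signal 119.7) and cutl-24 (82.7) had one in a coding exon. The molting genes had 0 of 9, and of the 13 epidermal and molting transcription factors found of 14 listed only myrf-1, a membrane-bound factor needed for larval development, had one, 409 bp upstream with 53.4 in replicate 1 and 28.7 in replicate 2. The lists are too short to be read against the background shares of 2.99% and 0.701%.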

How the data were processed

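Peak lists of 2 biological replicates of anti-GFP ChIP-seq were analysed. The deposited files are ranked and thresholded peak lists, for each replicate alone and for the series as a whole, in ce11 coordinates per the labels. Each peak has a signal value deposited by the authors with no stated scale. The deposited ranked lists also give the −log10 of the global IDR. The aligner, the peak caller and the read counts were not given in the sources used here, so depth is unknown and no interval rests on it. Input columns 1 and 2 of the ranked comparison were read as replicates 1 and 2: 58986 of 89772 distinct input 1 peaks are identical to peaks of replicate 1's own ranked list, 45867 of 87644 input 2 peaks to replicate 2's, and 0 across.

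Summits were placed on Ensembl release 115 models (WBcel235, the same assembly as ce11), on starts of all transcripts and on coding exons; product names and tRNA names come from RefSeq. Small RNA sites are those whose summit has a structural RNA gene (tRNA, rRNA, snRNA, snoRNA) starting within 100 bp. Sequence was read from the RefSeq genome of the same assembly. The mitochondrial genome was left out. Intervals are exact (Clopper-Pearson, 95%) and cover counting error only. Genes are not replicates, so no test was run. The members, lists and words were chosen with earlier results of these data known. The named col- genes are all with a site in the window or as nearest start, and the 10 with the strongest window candidate but no site. Genes of other lists are named for a site in the window (up to 4 a list, by signal). The coding-exon placement, the GC and repeat bins and the genes named for them were chosen after values were seen. Placement was tested on simulated data with known answers. Python 3.11.15, pandas 2.3.3, numpy 2.4.6 and SciPy 1.17.1 were used. Alternatives were other lists and IDR thresholds, each replicate alone, other windows and distances, and merged peaks.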

Additional observations from a re-analysis of the deposited data

How the results depend on the processing

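Of 54 alternatives, 23 stayed within 1.5 times a count, within the interval of a share, or within the limit set for a median, and 31 did not. The limit for a median was the standard deviation of 2 medians, 1 from each replicate's own ranked list. It was 1.17 for signal and 0.0092 for IDR. Those lists are not on the scale of the joint list, so this limit is a rough one. The cause was not tested beyond what each alternative changes by construction. The count of 2 col- genes with a promoter site became 7 at an IDR of at most 0.05, 1 at 0.001, 1 and 6 with windows of 500 and 2000 bp upstream, and 1 without sites at small RNA genes. Without a replicate it was 1 in both cases. The count of 111 with a ranked window candidate was 67 without replicate 1 and 87 without replicate 2. The median signal of 31.0 became 27.1 and 36.9 with windows of 500 and 2000 bp, and 19.4 to 21.0 without a replicate, on that replicate's own scale. The median best IDR of 0.455 became 0.495 and 0.389 with these windows. Without a replicate it was 0.799 to 0.813, taken from the remaining replicate's own ranked list. The IDR of that list does not compare the 2 replicates, so it is a different quantity. The 25 nearest sites became 12 in the optimal list, 47 at 0.05 and 5 at 0.001, and 6 without either replicate. Their 28.0% at small RNA genes became 50% (6 of 12) in the optimal list, 14.9% (7 of 47) at 0.05 and 100% (5 of 5) at 0.001, and 83.3 to 100% without a replicate. The 15 col- genes with a coding-exon site, whose alternatives were chosen after seeing the data, became 7 in the optimal list, 32 at 0.05, 4 at 0.005 and 0 at 0.001, and 0 without either replicate, and stayed at 15 with merged peaks. No paired analysis was possible because the series has 1 group and no test. With 2 libraries of unknown depth and no control library analysed here, a site's absence from a list does not show that a gene was unbound, and the coding-exon counts rest on peaks near the reproducibility threshold.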
